A study of Mus musculus with 18 samples.

Results

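The transforming growth factor beta (TGF-beta) genes described here are 3 ligands (Tgfb1, Tgfb2 and Tgfb3), 2 receptors (Tgfbr1 and Tgfbr2), the signal transducer Smad3, the inhibitor Smad7 and 2 response genes (Ctgf and Tgfbi). They were chosen by name, with earlier results of these data known, and matched by gene symbol. All 9 were found among the 24091 genes of the epididymal fat table and the 51826 genes of the inguinal fat table. TGF-beta ligands are secreted in a latent complex held in the matrix, from which integrins, proteases or thrombospondin release them. The active ligand binds the type II receptor, which phosphorylates the type I receptor, and the type I receptor then phosphorylates SMAD2 and SMAD3, which enter the nucleus with SMAD4. Smad7 is itself a target of this signal and closes a negative feedback loop. In white fat the pathway is known for restraining adipocyte differentiation and for matrix production by fibroblasts and progenitor cells, and macrophages are a source of its ligands.

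The 18 RNA sequencing libraries came from adipose tissue of C57BL/6 mice, with 3 libraries in each of 6 groups. The shiftwork schedule kept mice on a regular day of 12 h light for 4 days a week and inverted it for the other 3 days, while control mice kept the regular day throughout, in both cases for 24 weeks. In eWAT, the epididymal depot inside the abdomen, the groups were ZT12 shiftwork, ZT12 control, ZT3 shiftwork and ZT3 control, where ZT counts hours from lights-on in the regular cycle. In iWAT, the inguinal depot under the skin, they were ZT3 shiftwork and ZT3 control. The labels name no transgene or drug, and give neither the age of the mice nor whether the 3 libraries of a group came from separate animals. Each library's description ends in a number, distinct within its depot, and 4 of these numbers (14, 15, 16 and 45) occur in both a ZT12 eWAT group and an iWAT group of the same schedule. The labels do not say whether they name mice. The p-values therefore measure the spread between these libraries, which may be technical. In bulk tissue, fewer cells of a type and less RNA per cell cannot be told apart.

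Assigned reads ran from 20352008 to 72276733 per library in eWAT and from 28544338 to 55639501 in iWAT. Each of the 9 genes was read at depth: the shallowest value was 77 reads, for Tgfb2 in an eWAT library. The adipocyte markers (Adipoq, Plin1, Lep, Cidec, Fabp4, Lipe and Pparg) were present in every group, with 7 of 7 above 1 CPM (reads scaled to library size) in at least 1 library. Their sum was lower in ZT3 control 1 (13497 CPM), ZT3 control 3 (12450 CPM) and ZT3 shiftwork 3 (9093 CPM) than in the other eWAT libraries (18187 to 26295 CPM). A set of 3 eWAT libraries stood apart from their groups. The summed level of 7 male tract markers was 11411 CPM in ZT3 control 1, 11.7 CPM in ZT3 control 2 and 12020 CPM in ZT3 control 3, against 10.2 CPM or less in the other eWAT libraries. Most of it was Akr1b7, at 9039 CPM in ZT3 control 1, 8.47 CPM in ZT3 control 2 and 9325 CPM in ZT3 control 3. The summed level of 7 smooth muscle markers was 8010 and 5821 CPM in ZT3 control 1 and 3, and between 255.9 and 714.8 CPM in the other 10 eWAT libraries. In ZT3 shiftwork 3, 7 spermatid markers summed to 4279 CPM, against 63.9 CPM or less elsewhere. A further library, ZT12 shiftwork 2, had 403 CPM of 6 intestine markers, against 34.75 CPM or less in the other eWAT libraries. Ctgf, which was highest of its group there, is also given without it. Results on eWAT are given below with all 12 libraries and, where they rest on the 3 libraries with male tract or spermatid transcripts, without these 3. In iWAT, 6 B and plasma cell markers summed to 848 and 1296 CPM in control 1 and 2 and to 15.7 CPM in control 3, and 6 skeletal muscle markers summed to 45589 CPM in shiftwork 1.

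RefSeq promoter sequences on GRCm38.p6 were held for 6 of the 9 genes. The 250 bases before the annotated start are shown, 5′ to 3′ on the gene's strand, for the 3 genes whose levels at ZT12 lay above those at ZT3 in both schedules (Tgfbi, Tgfb1 and Tgfbr2) and for Tgfb2, which did not follow them. They lie at chr13:56609336-56609585 (plus strand), chr7:25686752-25687001 (plus strand), chr9:116175364-116175613 (minus strand) and chr1:186705990-186706239 (minus strand). Capitals mark matches to 3 motifs searched on both strands: CACGTG, the E-box that clock activators bind; CAGACA, which holds the SMAD-binding core; and GGAATG, the element bound by TEAD factors.
Tgfbi: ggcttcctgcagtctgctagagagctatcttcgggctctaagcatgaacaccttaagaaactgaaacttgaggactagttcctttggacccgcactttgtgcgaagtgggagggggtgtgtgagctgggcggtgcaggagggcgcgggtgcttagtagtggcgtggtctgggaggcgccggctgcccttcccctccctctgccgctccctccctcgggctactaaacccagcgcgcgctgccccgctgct
Tgfb1: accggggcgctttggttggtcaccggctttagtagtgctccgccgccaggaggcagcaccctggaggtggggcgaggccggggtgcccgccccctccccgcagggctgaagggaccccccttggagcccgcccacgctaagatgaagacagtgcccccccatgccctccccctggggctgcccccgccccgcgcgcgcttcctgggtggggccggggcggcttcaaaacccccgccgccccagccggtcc
Tgfbr2: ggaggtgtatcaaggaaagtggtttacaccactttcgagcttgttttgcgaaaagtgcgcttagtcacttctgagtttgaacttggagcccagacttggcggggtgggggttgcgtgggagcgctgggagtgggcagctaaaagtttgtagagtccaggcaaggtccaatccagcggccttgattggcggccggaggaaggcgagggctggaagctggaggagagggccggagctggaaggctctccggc
Tgfb2: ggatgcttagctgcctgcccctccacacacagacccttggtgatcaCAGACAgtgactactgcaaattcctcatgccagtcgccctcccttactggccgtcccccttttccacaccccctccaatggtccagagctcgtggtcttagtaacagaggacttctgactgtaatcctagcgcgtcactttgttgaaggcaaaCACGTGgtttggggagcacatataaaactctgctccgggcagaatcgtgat
The Tgfb2 window held 1 CACGTG and 1 CAGACA, and the windows of Tgfbi, Tgfb1 and Tgfbr2 held none of the 3 motifs. Smad3 and Tgfbr1, whose windows are not shown, did not lie above ZT3 at ZT12 in both schedules either. The Smad3 window and the Tgfbr1 window at chr4:47352972-47353221 also held none. Another Tgfbr1 window, at chr4:47385966-47386215, held 1 CAGACA. Among 32851 mouse promoter windows of the same length, 6.02% held CACGTG, 17.1% CAGACA and 12.6% GGAATG. These are matches of letters, not binding sites, and the shorter core within CAGACA was not searched by itself.

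By the authors' values per kilobase of transcript, the 9 genes kept a similar order in both depots. In the 12 eWAT libraries Tgfbi stood highest with a mean level of 38.9 ± 15.9 FPKM (SD, n = 12), followed by Tgfbr2 at 30.6 ± 5.9, Tgfb1 at 23.8 ± 4.6, Ctgf at 14.7 ± 9.2, Tgfb3 at 9.34 ± 1.22, Smad3 at 8.40 ± 1.21, Tgfbr1 at 6.98 ± 1.69, Smad7 at 3.61 ± 1.07 and Tgfb2 at 1.75 ± 1.04 FPKM. The ranges of neighbours in this order overlapped throughout, but Tgfbr2 lay above Tgfb1, Tgfbr1 above Smad7 and Smad7 above Tgfb2 in 12 of 12 libraries. The order was the same without the 3 libraries that stood apart. In the ZT3 control group alone the first places changed, with Tgfbr2 at 24.5 ± 2.0 FPKM and Tgfbi at 20.9 ± 0.9 FPKM (SD, n = 3) and no overlap between them. In the 6 iWAT libraries Tgfbi, Tgfbr2 and Tgfb1 again led, at 90.2 ± 27.6, 41.3 ± 16.2 and 25.6 ± 11.9 RPKM (SD, n = 6), and Tgfb2 was again lowest at 1.27 ± 0.51 RPKM. Ctgf held place 6 in shiftwork iWAT at 8.34 ± 2.20 RPKM and place 8 in control iWAT at 3.36 ± 1.08 RPKM (SD, n = 3 each). The tables of the 2 depots were normalised separately, so no test was made between them. Among the ligands, Tgfb1 was the most abundant and Tgfb2 the least in each of the 6 groups.

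The hour of sampling in control mice gave the one call among the 9 genes. Tgfbi, a matrix protein that binds collagens and integrins and is induced by TGF-beta, rose at ZT12 relative to ZT3. The other genes did not pass the test, although Tgfb1 and Tgfbr2 were higher at ZT12 and Tgfb2 lower, without overlap between libraries. The contrast compared the 3 ZT12 control and 3 ZT3 control libraries within a single edgeR quasi-likelihood fit of all 12, with Benjamini-Hochberg adjustment over 15141 genes. Of the 9 genes, 1 was called higher, beside 2.93% of all genes tested, and 0 were called lower, beside 0.766% (3.69% in either direction). At an unadjusted p under 0.05 there were 4 of the 9, beside 22.4% of all genes. By library values, 3 of the 9 lay wholly above the ZT3 range, beside 19.3% of all genes, and 1 lay wholly below it, beside 13.6% (32.9% in either direction).

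Tgfbi (chromosome 13, 56609603 to 56639339, plus strand, in the mm10/GRCm38 positions of the eWAT table) had 206, 186 and 151 CPM in ZT12 control libraries, against 70.7, 79.2 and 78.6 CPM in ZT3 control libraries. All 3 ZT12 libraries lay above all 3 ZT3 libraries. The fold change was 1.25 ± 0.21 on the log2 scale (SE, n = 3 per group, adjusted p = 0.0208, edgeR), or 2.37-fold. The 3 shiftwork libraries at ZT12 had 246, 190 and 146 CPM and the 3 at ZT3 had 134, 88.15 and 117.5 CPM, again without overlap, with a difference of 0.78 ± 0.21 (adjusted p = 0.280, edgeR). The difference in the time effect between the schedules was not called (interaction -0.47 ± 0.30, adjusted p = 0.565, edgeR). The call in control mice ended without any 1 of ZT3 control 1 (adjusted p = 0.0645), ZT3 control 3 (0.111), ZT12 control 1 (0.117) or ZT12 control 2 (0.0835), at fold changes of 1.20, 1.24, 1.13 and 1.23. Without the 3 libraries that stood apart, which leaves 1 ZT3 control library whose spread is taken from the other groups, the fold change was 1.15 ± 0.34 (adjusted p = 0.1002).

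**Figure D1:**
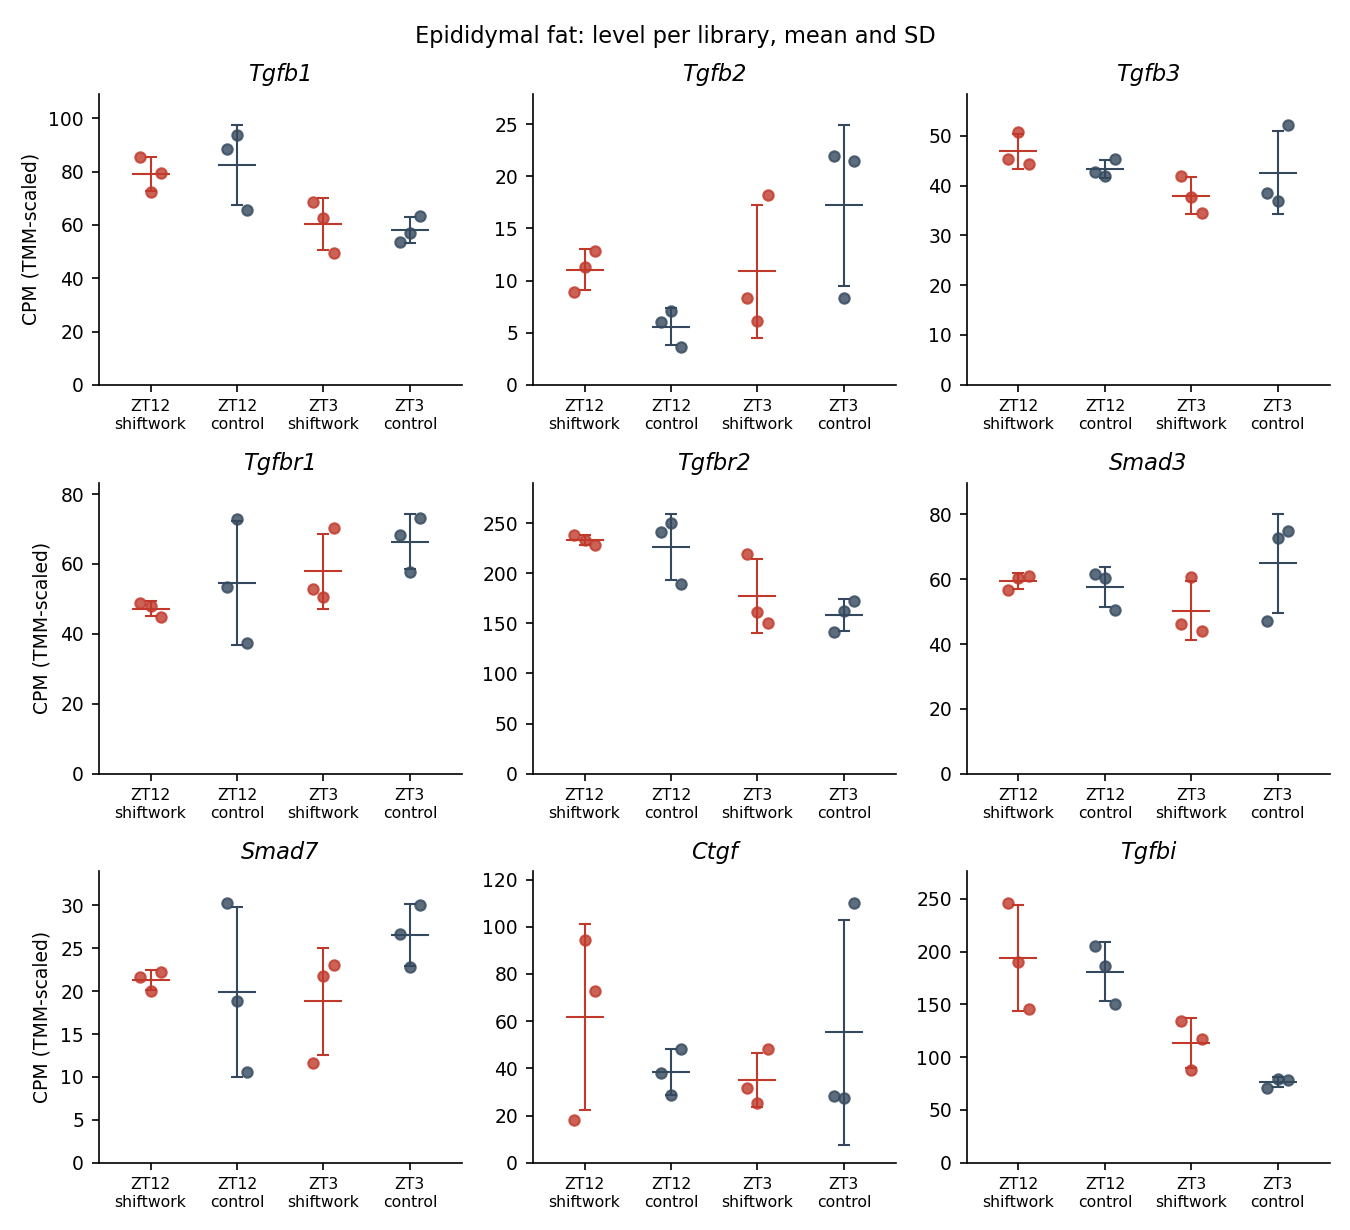
Level of each gene in the 12 epididymal fat libraries, in CPM scaled with TMM factors, with groups from left to right ZT12 shiftwork, ZT12 control, ZT3 shiftwork and ZT3 control. Points are libraries and bars are the mean and SD (n = 3). The Tgfbi libraries at ZT12 all lie above those at ZT3, and the ZT3 control libraries of Tgfb2 and Ctgf are spread widely.

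Macrophage markers moved with Tgfbi. The summed level of 8 macrophage markers (Csf1r, Cd68, Adgre1, Cd14, Mrc1, Lyz2, C1qa and C1qb) ran from 1473 to 3040 CPM in ZT12 shiftwork and from 1283 to 2292 CPM in ZT12 control, against 707 to 1178 CPM in ZT3 shiftwork and 725 to 929 CPM in ZT3 control. All 8 markers were above 1 CPM in each group. The library with the most macrophage transcripts, ZT12 shiftwork 1 at 3040 CPM, also had the highest Tgfbi level of 246 CPM. Tgfb1 and Tgfbr2 were also higher at ZT12 than at ZT3 in both schedules. The part of macrophage content in the changes of Tgfbi, Tgfb1 and Tgfbr2 was not tested.

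Among the ligands, Tgfb1, the isoform best known from immune control and fibrosis, had 85.5, 72.5 and 79.4 CPM in ZT12 shiftwork libraries and 88.5, 93.9 and 65.6 CPM in ZT12 control libraries. It had 68.6, 62.6 and 49.5 CPM in ZT3 shiftwork libraries and 53.8, 56.9 and 63.4 CPM in ZT3 control libraries. ZT12 libraries lay above ZT3 libraries within each schedule, and the schedules overlapped at both times. ZT12 differed from ZT3 by 0.51 ± 0.16 in control mice (adjusted p = 0.0966, edgeR) and by 0.39 ± 0.16 in shiftwork mice (adjusted p = 0.285, edgeR), so neither difference was called. Under DESeq2 on the same counts the difference in control mice was 0.48 ± 0.17 (adjusted p = 0.0330), and without ZT3 shiftwork 3 the edgeR value was 0.49 (adjusted p = 0.0286).

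Tgfb2, an isoform that needs the co-receptor betaglycan for tight receptor binding, behaved unlike Tgfb1. It had 8.92, 11.3 and 12.8 CPM in ZT12 shiftwork libraries and 6.03, 7.04 and 3.58 CPM in ZT12 control libraries. ZT3 shiftwork libraries had 8.31, 6.12 and 18.2 CPM and ZT3 control libraries had 21.9, 8.33 and 21.4 CPM. The 3 highest values belonged to the libraries with male tract or spermatid transcripts, and the other 9 libraries lay between 3.58 and 12.8 CPM. In control mice ZT12 was lower than ZT3 without overlap, by -1.63 ± 0.48 on the log2 scale (adjusted p = 0.0832, edgeR), and under DESeq2 by -1.67 ± 0.49 (adjusted p = 0.00905). Without ZT3 control 2 the edgeR value was -1.99 (adjusted p = 0.0305) and without ZT3 shiftwork 3 it was -1.66 (adjusted p = 0.0203). Without the 3 libraries that stood apart the difference was -0.63 ± 0.36 (adjusted p = 0.324). In shiftwork mice the ranges overlapped, and the interaction of schedule and time was 1.65 ± 0.67 (adjusted p = 0.484, edgeR), or 1.22 ± 0.46 without the 3 libraries (adjusted p = 0.303). The smooth muscle markers moved with Tgfb2 in the ZT3 control group, at 8010, 256 and 5821 CPM in libraries 1 to 3. So did the male tract markers (11411, 11.7 and 12020 CPM), mesothelial markers (212, 120 and 278 CPM) and skeletal muscle markers (193, 25.2 and 161 CPM). ZT3 shiftwork 3, with 18.2 CPM of Tgfb2, had 462 CPM of smooth muscle markers. The part of these cell types in the difference was not tested. The exons of Tgfb2 share bases with Gm29491 on the opposite strand. The strand setting of the counting is not given in the sources used here, so reads from the shared bases may come from either gene. The length of the shared stretch was not measured.

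Tgfb3, the third ligand, spanned 34.5 to 52.2 CPM over the 12 libraries. It had 45.4, 50.85 and 44.4 CPM in ZT12 shiftwork libraries, 42.7, 41.97 and 45.45 CPM in ZT12 control libraries, 41.8, 37.7 and 34.5 CPM in ZT3 shiftwork libraries, and 38.6, 37.0 and 52.2 CPM in ZT3 control libraries. In shiftwork mice the ZT12 libraries lay above the ZT3 libraries, by 0.30 ± 0.14 (adjusted p = 0.312, edgeR), and the other pairs of groups compared overlapped. Its exons share bases with Gm37804 and Gm48008 on the opposite strand, with the same limit.

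The 2 receptors differed in direction. Tgfbr2, the type II kinase that binds the ligand, had 238, 234 and 228 CPM in ZT12 shiftwork libraries and 241, 250 and 189 CPM in ZT12 control libraries. It had 219, 162 and 150 CPM in ZT3 shiftwork libraries and 141, 162 and 173 CPM in ZT3 control libraries. ZT12 lay above ZT3 in both schedules without overlap, by 0.40 ± 0.16 in shiftwork mice (adjusted p = 0.285, edgeR) and by 0.51 ± 0.16 in control mice (adjusted p = 0.0985, edgeR). In control mice the difference was 0.48 ± 0.16 under DESeq2 (adjusted p = 0.0262) and 0.49 without ZT3 shiftwork 3 (adjusted p = 0.0353, edgeR). Tgfbr1, the type I kinase that phosphorylates SMAD2 and SMAD3, had 48.7, 48.1 and 44.8 CPM in ZT12 shiftwork libraries and 53.5, 72.9 and 37.4 CPM in ZT12 control libraries. ZT3 shiftwork libraries had 52.9, 50.6 and 70.2 CPM and ZT3 control libraries had 68.4, 57.6 and 73.2 CPM. Tgfbr1 was lower at ZT12 in shiftwork mice, by -0.30 ± 0.22 (adjusted p = 0.531, edgeR), with no overlap between 48.7 and 50.6 CPM, and overlapped in control mice.

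Smad3, the transcription factor of the pathway, had 56.5, 60.4 and 61.0 CPM in ZT12 shiftwork libraries, 61.5, 60.5 and 50.4 CPM in ZT12 control libraries, 46.2, 60.7 and 44.03 CPM in ZT3 shiftwork libraries and 47.2, 72.7 and 74.7 CPM in ZT3 control libraries. Every pair of groups compared overlapped. Smad7, which draws ubiquitin ligases to the type I receptor, had 21.7, 20.02 and 22.3 CPM in ZT12 shiftwork libraries and 30.3, 18.8 and 10.6 CPM in ZT12 control libraries. It had 11.7, 21.7 and 23.02 CPM in ZT3 shiftwork libraries and 26.7, 22.8 and 30.03 CPM in ZT3 control libraries. The ZT12 control group held both the lowest and the highest of the 12 values, and no comparison was free of overlap.

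Ctgf, a matricellular protein induced by TGF-beta and by the YAP and TEAD factors, had the largest SE of the 9 in eWAT. It had 18.03, 94.3 and 72.8 CPM in ZT12 shiftwork libraries and 38.1, 28.8 and 48.2 CPM in ZT12 control libraries. ZT3 shiftwork libraries had 31.7, 25.5 and 48.01 CPM and ZT3 control libraries had 28.1, 27.5 and 110 CPM. Its 4 differences between groups lay between -0.65 and 0.81, with an SE of 0.65 each, and every pair of groups compared overlapped. The differences at ZT3 and with time in control mice rested on ZT3 control 3. Without it, shiftwork minus control at ZT3 was 0.32 ± 0.58, against -0.65 with all libraries, and ZT12 minus ZT3 in control mice was 0.43 ± 0.58, against -0.52. Without ZT12 shiftwork 2, the library with intestine transcripts and the highest Ctgf level of its group, shiftwork minus control at ZT12 was 0.24 ± 0.71, against 0.68 with all libraries, and ZT12 minus ZT3 in shiftwork mice was 0.36 ± 0.71, against 0.81.

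For the weekly light schedule in eWAT, none of the 9 genes was called at either time. At ZT3, 0 of 9 were called, beside 0.0% of all genes, and 1 lay wholly above the control range, beside 7.64%, and 0 below it, beside 4.33% (12.0% in either direction). That gene was Tgfbi, at 134, 88.15 and 117.5 CPM in shiftwork libraries against 70.7, 79.2 and 78.6 CPM in control libraries, a difference of 0.57 ± 0.21 (adjusted p = 0.219, edgeR). Without the 3 libraries that stood apart it was 0.48 ± 0.35 (adjusted p = 0.582). The macrophage marker sum of ZT3 shiftwork libraries was 1178, 707 and 981 CPM, in the same order as their Tgfbi levels. The other 8 genes had differences from -0.67 to 0.16, with 2 of them above 0. Without the 3 libraries 5 of the 9 were above 0, against 3 with them: Ctgf was at 0.04, against -0.65 with all libraries, Tgfb3 at 0.09, against -0.16, and Tgfb2 at -0.22, against -0.67. At ZT12, 0 of 9 were called, beside 0.0% of all genes, and 1 lay wholly above the control range, beside 5.91%, and 0 below it, beside 6.55% (12.5% in either direction). That gene was Tgfb2, at 8.92, 11.3 and 12.8 CPM in shiftwork libraries against 6.03, 7.04 and 3.58 CPM in control libraries, a difference of 0.99 ± 0.47 (adjusted p = 1.0, edgeR). At an unadjusted p under 0.05, 2847 genes (18.8%) passed at ZT3, of which 1 was among the 9, and 355 genes (2.34%) passed at ZT12, of which 0 were. DESeq2 called 629 and 7 genes, none of them among the 9.

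Within shiftwork mice, ZT12 against ZT3 gave 0 calls among the 9, beside 0.0% of all genes, although 2461 genes (16.3%) had an unadjusted p under 0.05, 3 of the 9 among them. By library values 4 of the 9 lay wholly above the ZT3 range (Tgfb1, Tgfb3, Tgfbr2 and Tgfbi), beside 9.05% of all genes, and 1 lay wholly below it (Tgfbr1), beside 7.59% (16.6% in either direction). DESeq2 called 288 genes, and Tgfbi was among them at 0.75 ± 0.22 (adjusted p = 0.0448). For the interaction of schedule and time, 0 of 9 were called, beside 0.0% of all genes, 1535 genes (10.1%) and 1 of the 9 had an unadjusted p under 0.05, and DESeq2 called 187 genes, none of them among the 9. The contrasts by time and by schedule share libraries, so their values are not independent of each other.

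**Figure D2:**
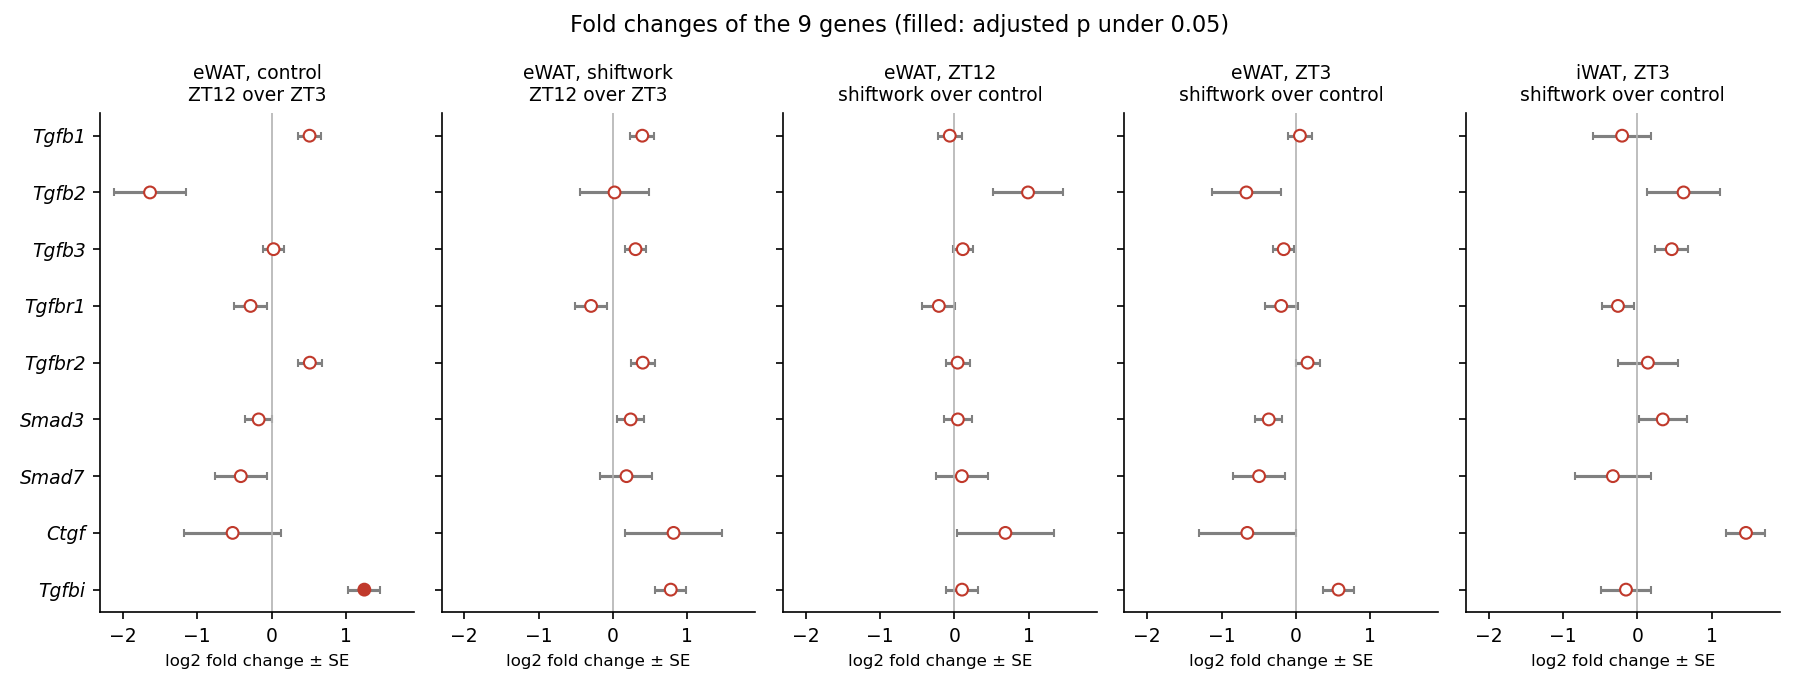
Log2 fold change of the 9 genes in the 5 comparisons, with SE as bars (n = 3 libraries per group; edgeR for eWAT, limma for iWAT). The only filled point, an adjusted p under 0.05, is Tgfbi at 1.25 for ZT12 over ZT3 in control eWAT, and the largest difference in iWAT is Ctgf at 1.46.

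In iWAT the schedule left the ligands, receptors and SMADs within overlapping ranges, and Ctgf alone was separated. Normalised read counts were tested on the log2(value + 1) scale with limma over 16387 genes, which called 0 of the 9, beside 0.0% of all genes, and 1094 genes (6.68%) had an unadjusted p under 0.05, 1 of the 9 among them. By library values 1 of the 9 lay wholly above the control range, beside 7.34% of all genes, and 0 lay wholly below it, beside 5.59% (12.9% in either direction). Ctgf (chromosome 10, 24595442 to 24598682, plus strand) had 620, 897 and 946 normalised reads in shiftwork libraries, against 379, 241 and 274 in control libraries. The lowest shiftwork library exceeded the highest control library. The difference was 1.46 ± 0.26 on the log2(value + 1) scale (SE, n = 3 per group, adjusted p = 0.688, limma), or 2.75-fold. The direction was the same in 13 of 13 alternatives, between 1.29 and 1.65, with an adjusted p of 0.0937 to 0.999 in the 6 fits that each left out 1 library.

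Whether Ctgf was called in iWAT depended on the test. In the authors' deposited table its log2 fold change was 1.40 with an adjusted p of 0.00273, in a comparison where 426 of 29819 genes (1.43%) passed. DESeq2 on the whole reads recovered from the deposited values, an alternative chosen after seeing the data, gave 1.45 ± 0.31 (adjusted p = 0.00100) and called 451 genes. The edgeR quasi-likelihood test on the same recovered reads gave 1.44 ± 0.26 (adjusted p = 0.487). The other 8 genes had an adjusted p of 0.746 or more in the authors' deposited table. The summed smooth muscle markers were also higher in shiftwork iWAT, without overlap, at 2097, 865 and 585 CPM against 555, 486 and 293 CPM in control libraries. Within the shiftwork group their order was the reverse of that of Ctgf. The list holds Des, which skeletal muscle also expresses. Of its 7 genes only Myh11, a myosin of smooth muscle, was looked at singly. It overlapped, at 59.3, 116 and 98 CPM in shiftwork libraries against 106, 74.9 and 61.2 CPM in control libraries. The smooth muscle genes Acta2 and Tagln, outside the list, had log2 fold changes of 0.90 and 0.67 in the authors' deposited table (adjusted p of 0.6369 and 0.6655). Fibroblast and progenitor markers (6 genes) overlapped, at 2044, 1615 and 3013 CPM in shiftwork libraries against 1619, 1348 and 2296 CPM in control libraries. Skeletal muscle markers were higher in shiftwork too, without overlap, at 45589, 706 and 136 CPM against 113, 50.3 and 48.03 CPM in control libraries. Their order within the shiftwork group was again the reverse of that of Ctgf. Shiftwork 1, which had most of them, had the lowest Ctgf value of its group, and without it the difference was 1.65 (adjusted p = 0.993, limma). An order among so few libraries cannot show the part of muscle content, and both marker sums differed between groups in the direction of Ctgf. The part of smooth or skeletal muscle content in the difference was not tested.

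**Figure D3:**
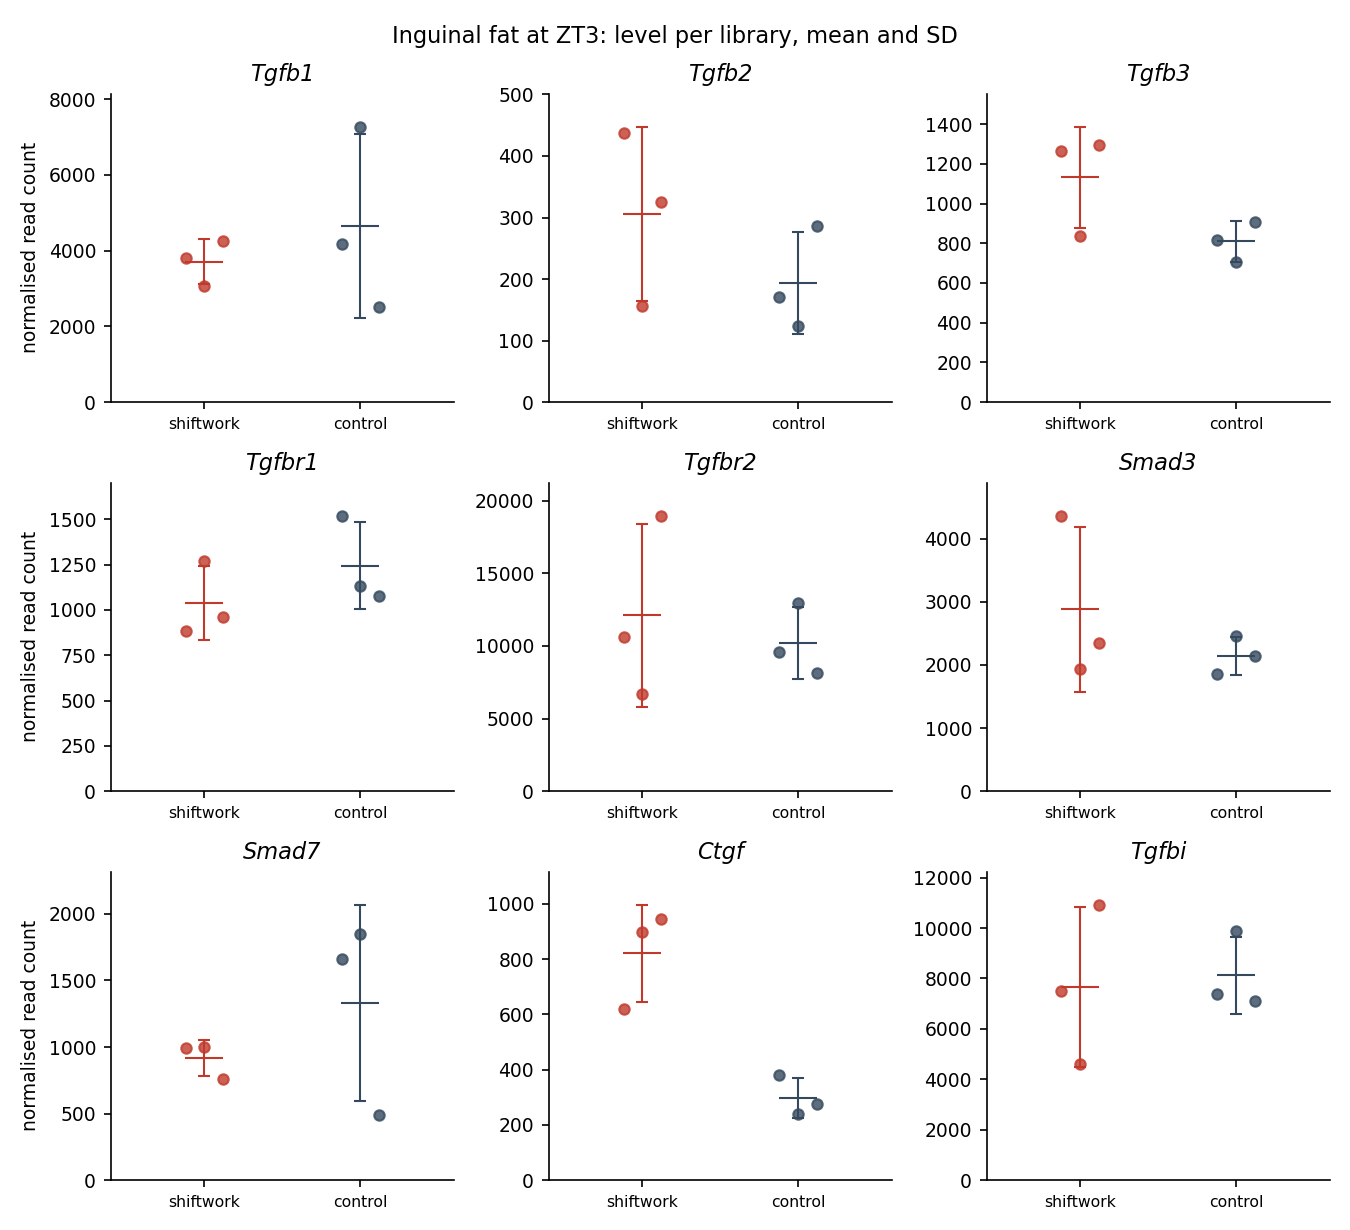
Level of each gene in the 6 inguinal fat libraries at ZT3, as normalised read counts, with shiftwork left of control. Points are libraries and bars are the mean and SD (n = 3). The groups are separate for Ctgf, at 620 to 946 in shiftwork and 241 to 379 in control, and overlap for the other 8 genes.

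The iWAT ligands overlapped between schedules. Tgfb1 had 3818, 3067 and 4256 normalised reads in shiftwork libraries, against 4183, 7278 and 2507 in control libraries. Tgfb2 had 438, 157 and 325 in shiftwork libraries, against 171, 124 and 286 in control libraries. Tgfb3 had 1263, 836 and 1295 in shiftwork libraries, against 819, 703.5 and 906 in control libraries. The control group was the wider one for Tgfb1, and its highest library, control 2, was also the one with the most B and plasma cell transcripts, at 1296 CPM. Without control 1 and 2, which leaves 1 control library, the Tgfb1 difference was 0.55, against -0.20 with all 6 libraries, and the part of these cells was not tested.

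Receptors, transducer and inhibitor in iWAT also overlapped. Tgfbr1 had 884, 1273 and 959 normalised reads in shiftwork libraries, against 1521, 1132 and 1079 in control libraries. Tgfbr2 had 10635, 6682 and 18977 in shiftwork libraries, against 9554, 12930 and 8130 in control libraries. Smad3 had 4365, 1932 and 2342 in shiftwork libraries, against 1850, 2450 and 2139 in control libraries. The highest Tgfbr2 library was shiftwork 3 and the highest Smad3 library was shiftwork 1. Smad7 had 991, 1003 and 758 in shiftwork libraries, against 1663, 1847 and 486 in control libraries. Its 2 highest values were those of control 1 and 2, and its direction turned to 0.90 without these libraries, against -0.33 with all 6. Tgfbi had 7490, 4602 and 10931 in shiftwork libraries, against 7394, 9880 and 7088 in control libraries, so the shiftwork range enclosed the control range. The 8 genes other than Ctgf had differences from -0.33 to 0.62, on either side of 0.

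Beyond the 9 genes, 53 other genes of the pathway were followed in 5 lists: the latent complex and its activation (12), other receptors (7), other SMADs (6), inhibitors (10) and other response genes (18). In control eWAT, ZT12 against ZT3 gave 4 calls that were higher and 1 that was lower among the 53, beside 2.93% and 0.766% of all genes. Pmepa1, a feedback inhibitor that holds SMAD2 and SMAD3 away from the receptor, rose by 2.64 ± 0.35 (adjusted p = 0.0164, edgeR), with 589, 477 and 536 CPM in ZT12 libraries against 71.2, 116 and 69.6 CPM in ZT3 libraries. Nedd4l, a ubiquitin ligase for activated SMADs, rose by 0.65 ± 0.11 (adjusted p = 0.0218). Acvrl1, a type I receptor of endothelial cells, rose by 0.77 ± 0.12 (adjusted p = 0.0185), with 91.5, 86.8 and 86.1 CPM at ZT12 against 56.0, 52.5 and 46.7 CPM at ZT3. Acvr1b, an activin type I receptor, rose by 0.81 ± 0.18 (adjusted p = 0.0392). Endothelial markers (6 genes) overlapped between these groups, at 885 to 1190 CPM in ZT12 control and 732 to 891 CPM in ZT3 control, and their part in the Acvrl1 change was not tested.

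Tagln, an actin-binding protein of smooth muscle, fell by 3.66 ± 0.86 (adjusted p = 0.0484, edgeR), with 41.6, 38 and 45.9 CPM in ZT12 control libraries against 798, 39.2 and 748 CPM in ZT3 control libraries. The 2 high values were those of the libraries with male tract and smooth muscle transcripts, and without the 3 libraries that stood apart the difference was 0.06 ± 0.34 (adjusted p = 0.943). Without them Acvrl1 remained called at 0.71 ± 0.13 (adjusted p = 0.0332), while Pmepa1 was at 2.16 ± 0.49 (adjusted p = 0.0533), Nedd4l at 0.53 ± 0.15 (adjusted p = 0.0845) and Acvr1b at 0.77 ± 0.25 (adjusted p = 0.120). Leaving out single libraries, the call of Pmepa1 ended without ZT3 control 3 (adjusted p = 0.0838), ZT12 control 1 (0.0928) or ZT12 control 2 (0.0595), and that of Acvrl1 without ZT3 control 3 (0.109) or ZT12 control 1 (0.112), 2 (0.0705) or 3 (0.0523). The call of Nedd4l ended without ZT3 control 3 (adjusted p = 0.128), any ZT12 control library (0.0660 to 0.0928) or ZT12 shiftwork 2 (0.0544) or 3 (0.0548). Adjusted p-values for Acvr1b ran from 0.0221 to 0.192 and for Tagln from 0.000505 to 0.182 over the 12 fits that each left out 1 library.

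The 18 other response genes lay mostly above 0 in 4 comparisons, with 0 calls in any of these. Those in eWAT all use the same ZT12 shiftwork libraries, so they are not separate observations. In shiftwork eWAT, 18 of 18 were higher at ZT12 than at ZT3, with a median difference of 0.57, where 46.4% of all genes were higher and their median was -0.03. Col1a1, a chain of type I collagen, had the smallest p of the list, with 761, 569 and 594 CPM in ZT12 shiftwork libraries against 386, 347 and 480 CPM in ZT3 shiftwork libraries, a difference of 0.66 ± 0.19 (adjusted p = 0.280, edgeR). Without the 3 libraries that stood apart, 16 of 18 were higher, with a median of 0.58. In the 12 fits that each left out 1 library, 16 to 18 were higher, with medians of 0.42 to 0.60. In control eWAT, 10 of 18 were higher at ZT12, with a median of 0.03. For shiftwork against control in eWAT, 14 of 18 were higher at ZT12, with a median of 0.16, and 7 of 18 at ZT3, with a median of -0.14. The interaction of schedule and time was above 0 for 14 of 18, with a median of 0.69, and for 12 of 18 without the 3 libraries, with a median of 0.71. Of all genes 42.9% were above 0, with a median of -0.07. In the 12 fits that each left out 1 library, 13 to 16 of the 18 were above 0. Their medians ran from 0.36, without ZT12 shiftwork 1, to 0.85. In iWAT, 17 of 18 were higher in shiftwork, with a median difference of 0.80, where 51.8% of all genes were higher and their median was 0.02. Without iWAT shiftwork 3 the median was 0.49 with 17 of 18 higher, and without control 1 and 2 it was 0.43 with 14 of 18 higher. Several of these genes, the collagens among them, are made by fibroblasts, whose marker sum was 863 to 903 CPM in ZT12 shiftwork against 582 to 760 CPM in ZT3 shiftwork, and its part was not tested. The genes of a list vary together across libraries, so its count is a description of these libraries.

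Among activators of the latent ligand in iWAT, Thbs1 (thrombospondin 1) was singled out after its values were seen. It had 5206, 5451 and 8395 normalised reads in shiftwork libraries, against 1794, 1486 and 806 in control libraries, with no overlap. The difference was 2.26 ± 0.35 (adjusted p = 0.688, limma), and the log2 fold change of 2.09 in the authors' deposited table had an adjusted p of 7.57e-05. Of the 52 pathway genes tested in iWAT, 44 were higher and 8 lower in shiftwork, with a median of 0.36 and 0 calls. Thbs1 and Acvrl1 passed in the authors' deposited table, Acvrl1 at 0.52 with an adjusted p of 0.0429.

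**Figure D4:**
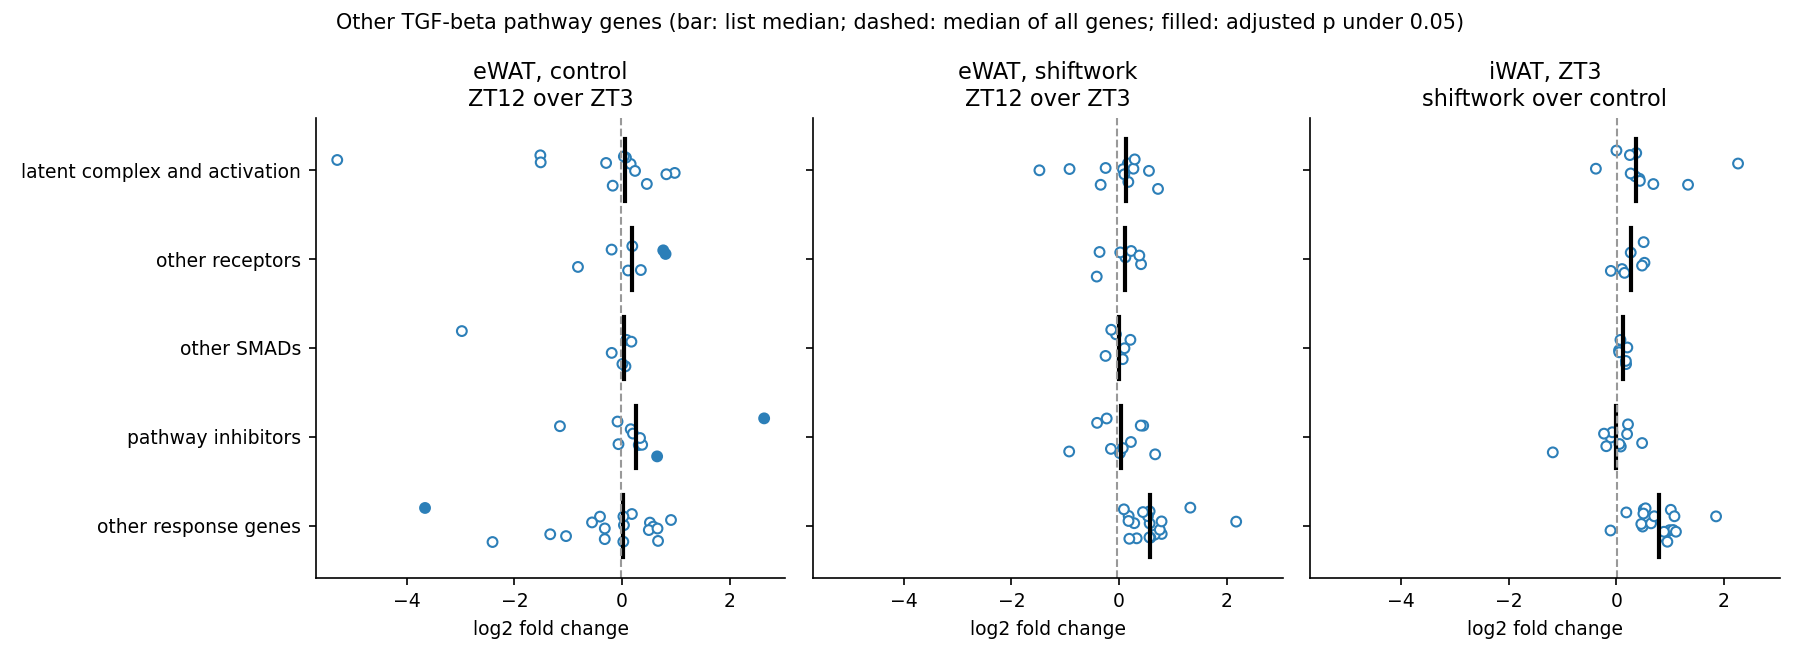
Log2 fold changes of the 53 other pathway genes (52 in iWAT) by list, for ZT12 over ZT3 in control eWAT, ZT12 over ZT3 in shiftwork eWAT, and shiftwork over control in iWAT. Points are genes, filled where the adjusted p is under 0.05, black bars are list medians and the dashed line is the median of all genes. All 18 response genes sit right of the line in the middle panel and 17 of 18 in the right panel, with medians of 0.57 and 0.80.

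**Figure D5:**
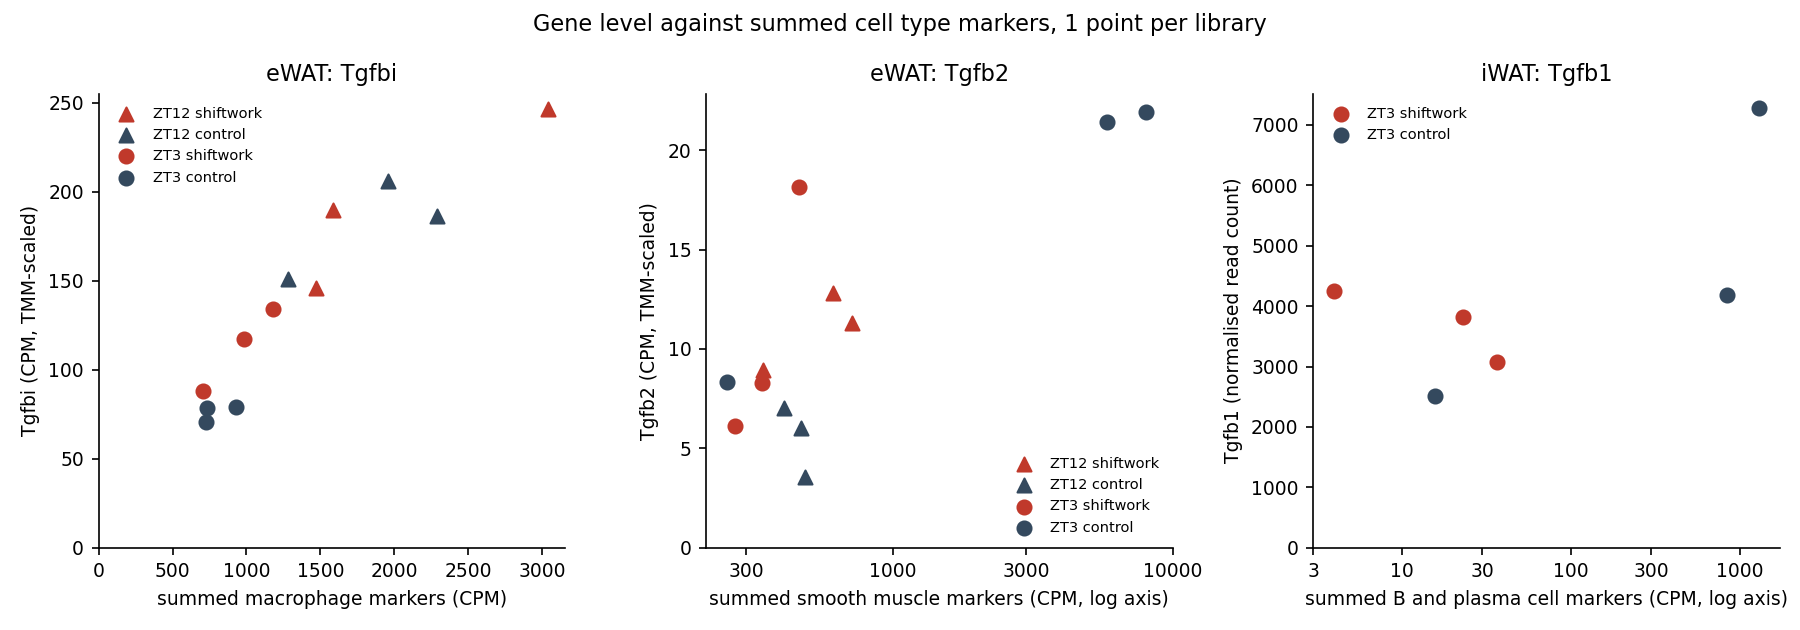
Level of Tgfbi and Tgfb2 in eWAT and of Tgfb1 in iWAT (vertical, CPM or normalised read count) against the summed level of macrophage, smooth muscle and B and plasma cell markers in the same library (horizontal, CPM, on a log axis in the middle and right panels). Each point is a library. Tgfbi is highest, at 246 CPM, where macrophage markers are highest, and the Tgfb2 values of 21.9 and 21.4 CPM are those of the 2 libraries rich in smooth muscle transcripts. The Tgfb2 value of 18.2 CPM, in ZT3 shiftwork 3, lies at 462 CPM of smooth muscle markers.

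Across the 9 eWAT libraries left without those that stood apart, the genes most like each of the 9 in log2 CPM were looked up among 12855 genes. Tgfbi was most like Abhd8 (Pearson r = 0.99) and Nt5dc2 (r = 0.98), and Tgfb1 like Plagl2 and Cdc42se2 (r = 0.98 for both). Tgfbr2 was most like Mamdc2 and Ptafr (r = 0.98 for both), and Tgfbr1 like Slc39a10 (r = 0.98) and Lman1 (r = 0.95). Ctgf was most like Dlg5 (r = 0.99) and Myocd (r = 0.97), and Smad7 like Bhlhe40 (r = 0.97) and Pomt2 (r = 0.91). Tgfb2 was most like Ntn1 (r = 0.95) and Fxyd6 (r = 0.93), Tgfb3 like Cep170b and Trnp1 (r = 0.96 for both), and Smad3 like Klhl25 (r = 0.94) and Slc20a1 (r = 0.93). These are the highest of many correlations over libraries that share depth and cell content, and they are given as a description. By ranks some were weaker, with a Spearman rho of 0.63 for Smad3 and Klhl25, 0.73 for Smad7 and Pomt2 and 0.82 for Tgfbr1 and Lman1. The other pairs had a rho of 0.90 or more.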

How the data were processed

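RNA was extracted with Trizol and columns after DNase treatment, and mRNA libraries were read as single reads of 51 cycles, per the labels. Tools listed in the submitters' processing notes are STAR, HTSeq, limma, edgeR and DESeq2, and the builds listed are mm10 and GRCm38, with neither version nor role. The strand setting of counting is not given in the sources used here. For eWAT the authors deposited read counts per gene and log2 FPKM values, which include an offset of 0.1 FPKM. For iWAT the values deposited under the name of read counts are a normalised signal, each library's counts divided by a factor: whole reads were recovered for 100.0% of 310956 values (tolerance 1e-06). The authors also deposited RPKM for iWAT, per the file headers, and their own log2 fold changes with a p-value per gene. Counts of no 2 libraries agreed within sampling noise.

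The eWAT fit used edgeR 4.0.16 under R 4.3.3 (quasi-likelihood, robust, TMM, minimum count 10, minimum total 15) over 12 libraries. iWAT values were tested with limma 3.58.1 (trend, robust) on log2(value + 1), for genes of at least 10 in at least 3 libraries. P-values were adjusted by Benjamini-Hochberg over all genes, with calls under 0.05. Alternatives were DESeq2 1.42.0, other scaling, filters, units and pseudocounts, a replicate block and fits without single libraries. The scripts were tested on simulated data. The SE of an edgeR fold change is its size over the square root of F. The 9 genes, the pathway and marker lists and the tests were chosen with earlier results of these data known. Named pathway genes are those past the adjusted threshold, at most 4 per list and comparison; Col1a1, Thbs1 and Acvrl1 in iWAT were chosen after their values were seen. For the 9 genes, fold changes with a p were to be given where the unadjusted p was under 0.05; those of Tgfb3, Tgfbr1, the Tgfbi interaction, Tgfb2 at ZT12, and Tgfb1 and Smad7 in iWAT were added after their values were seen. Exon overlap was looked up in GENCODE vM21 for the 8 genes whose symbol it holds.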

Additional observations from a re-analysis of the deposited data

How the results depend on the processing

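The number of the 9 genes called was most sensitive for ZT12 against ZT3 in control eWAT, where 1 was called, beside 559 of all genes. DESeq2 called 4 (Tgfb1, Tgfb2, Tgfbr2 and Tgfbi), beside 2168 of all genes. Fits without 1 library each called 0 to 4, beside 1 to 2744 of all genes. For ZT12 against ZT3 in shiftwork eWAT, 0 were called and DESeq2 called 1, beside 288 of all genes. For iWAT 0 were called, and DESeq2 on recovered reads, added after seeing the data, called 1, beside 451 of all genes. Tgfbi kept its direction in 18 of 18 alternatives in control eWAT and its call in 13, between 1.13 and 1.34. Tagln in control eWAT, at -3.66, turned to 0.0551 without the 3 libraries. Over all genes, ZT12 against ZT3 in control eWAT gave 559 calls, against 2168 with DESeq2, 320 with no filter on counts, 298 with the replicate block, 619 without the 3 libraries, and 1 (without ZT12 control 1) to 2744 (without ZT3 shiftwork 3) without 1 library each; the cause was not tested. For shiftwork against control at ZT3 in eWAT the 0 calls became 629 with DESeq2 and 0 to 403 without 1 library each (403 without ZT3 control 2), for ZT12 they became 7 with DESeq2, for time in shiftwork 288 with DESeq2 and 75 without the 3 libraries, for the interaction 187 with DESeq2 and 186 without ZT3 control 2, and in iWAT 451 with DESeq2 and 389 without control 3. Of the 53 other pathway genes, 5 were called for time in control eWAT, against 12 with DESeq2, 3 with no filter, with the block and without the 3 libraries, and 0 to 11 without 1 library each. Deviations of same-numbered libraries correlated between -0.21 and 0.24. With 3 pairs per comparison, this cannot show whether the replicate numbers pair the libraries. With the replicate block in edgeR, Tgfbi kept its call (adjusted p = 0.0315) and 1 of the 9 was called. Another scale moved the median of all genes by over 0.1 with log2(RPKM + 0.1) in iWAT, from 0.02 to -0.12, where Ctgf was at 1.29. With no filter on counts in eWAT the median moved less, from 0.06 to 0.11 for shiftwork against control at ZT3 and from -0.07 to -0.12 for the interaction. The 77 reads behind the lowest Tgfb2 value mark where depth limits these genes most.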
